A study of Mus musculus with 6 samples.

Results

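DNA replication and DNA repair genes were examined in sorted cells of mouse mammary tumours. The set holds 49 genes, chosen by name: 30 that copy DNA or supply its building blocks, called replication genes here, and 19 that sense or mend DNA damage, called repair genes. Each gene was read from 1 probe set, the one with the highest mean over all arrays among those annotated to that gene alone. All 49 passed the filter on dim probe sets, out of 15027 genes tested in all. Tumours came from 3 mice of the MMTV-Wnt-1 line, whose transgene expresses Wnt1 in mammary epithelium from a viral promoter, that of mouse mammary tumour virus. All 6 arrays carry that transgene, and no array of normal gland was analysed here. Cells were sorted by fluorescence into a population labelled tumorigenic, gated CD24+Thy+CD45-, and one labelled nontumorigenic, whose label negates that gate without saying if CD45-positive cells were let in. Each population of each mouse gave 1 array, and the labels give no age. Amplified RNA was hybridised to Affymetrix arrays, and values are log2 levels per probe set, so that 1 unit is a 2-fold change. Every difference is in log2 units, with the labelled nontumorigenic mean subtracted from the labelled tumorigenic mean.

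Chromosomes are copied once per cell cycle. Origin recognition complex proteins, with Cdc6 and Cdt1, load the ring-shaped Mcm helicase on DNA in G1, and Cdc45 and the GINS complex join it in S phase to form the active helicase. Polymerases then copy both strands, held on DNA by the Pcna clamp, while checkpoint kinases and repair enzymes deal with stalled forks and broken strands. Many replication genes are transcribed by E2F factors as cells enter S phase, so their transcript levels in bulk tissue are widely read as a measure of proliferation. Most repair genes are also expressed outside S phase. In bulk samples such as these, fewer cells of a type and less RNA per cell cannot be told apart.

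The arrays differed in more than the gate. Control probe sets at the 3' and 5' ends of Gapdh lay 6.60 log2 units apart in the labelled tumorigenic array of mouse 2, against 2.41 to 3.81 in the other 5. The 18S ribosomal control probe sets separated the labels in every mouse: the 3' one read 7.76, 6.32 and 7.38 in labelled tumorigenic mice 1, 2 and 3 and 8.97, 8.52 and 8.66 in the other population, and the 5' one read 6.84, 5.17 and 7.11 against 8.26, 8.27 and 7.84. The mean level of 15 leukocyte markers was 8.63, 7.20 and 4.93 in labelled tumorigenic mice 1, 2 and 3 and 3.95 to 4.11 in the other population. Ptprc, which encodes CD45, read 10.21, 7.76 and 3.82 in the labelled tumorigenic arrays of mice 1, 2 and 3 and 2.33, 3.59 and 2.51 in the labelled nontumorigenic arrays, so that it went against the gate and the arrays are named by their labels throughout. The mean of 10 luminal epithelial markers was 7.15 to 8.44 under the tumorigenic label and 9.60 to 9.74 under the other. Of 10 endothelial markers, 9 lay above every labelled nontumorigenic array in all 3 labelled tumorigenic arrays. The means of 9 basal and 7 fibroblast markers overlapped between the labels. For basal markers they were 9.11 to 10.36 under the tumorigenic label against 8.86 to 9.40. For fibroblast markers they were 8.96 to 10.83 against 9.45 to 10.33. The mean of 5 adipocyte markers was 5.72 to 8.22 against 4.31 to 4.68. Gene by gene the parting was less complete. In all 3 labelled tumorigenic arrays, 2 of the 5 adipocyte and 8 of the 15 leukocyte markers lay above every labelled nontumorigenic array. Of the 10 luminal markers, 8 lay below them all. The part of these differences in the results below was not tested, and counts without single labelled tumorigenic arrays are given beside the main ones.

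Promoter sequences are shown first, because E2F control is the textbook reason why replication genes are read together. Windows from 250 bases before to 50 bases after an annotated start were found in the RefSeq promoter table (mouse build GRCm38.p6) for 40 of the 49 genes, 45 windows in all. They were searched on both strands for 4 E2F-type motifs, TTTGGCGC, TTTCGCGC, TTTCCCGC and TTTGCCGC, and for CCAAT. An E2F-type match was found in 15 of the 45 windows, 33.3%, against 2.26% of all 32851 windows of that table. The share was 36.7% for 30 windows of replication genes and 26.7% for 15 windows of repair genes. CCAAT, a far shorter motif, was in 57.8% of the members' windows and in 37.4% of all windows. The members' windows were richer in G and C bases, with a median of 57.3% against 52.7% in all windows. The part of this base content in the motif shares was not tested. The sequences below run 160 bases up to the base before the annotated start. Mcm5, Mcm6 and Rfc3 are examples of the 15 genes with E2F-type matches, which are in capitals. Rfc5, Blm and Atr are examples of genes whose ranges in the 2 populations were apart. Fen1 also had windows and ranges apart and is not shown.
Mcm5, chr8:75109349-75109508, plus strand: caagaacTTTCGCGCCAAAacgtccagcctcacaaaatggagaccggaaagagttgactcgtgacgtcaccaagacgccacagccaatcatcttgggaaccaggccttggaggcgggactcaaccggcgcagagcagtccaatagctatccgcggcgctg
Mcm6, chr1:128359706-128359865, minus strand: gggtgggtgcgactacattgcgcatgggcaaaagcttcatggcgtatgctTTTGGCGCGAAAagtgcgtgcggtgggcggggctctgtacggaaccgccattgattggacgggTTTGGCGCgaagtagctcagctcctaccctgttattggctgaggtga
Rfc3, chr5:151651209-151651368, minus strand: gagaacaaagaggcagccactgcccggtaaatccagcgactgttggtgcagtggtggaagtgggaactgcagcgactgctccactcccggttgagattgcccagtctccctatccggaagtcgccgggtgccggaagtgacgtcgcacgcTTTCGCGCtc
Rfc5, chr5:117389024-117389183, minus strand: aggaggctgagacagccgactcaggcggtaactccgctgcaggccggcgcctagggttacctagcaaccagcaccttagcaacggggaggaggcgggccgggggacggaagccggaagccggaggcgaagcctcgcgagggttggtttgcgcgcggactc
Blm, chr7:80534999-80535158, minus strand: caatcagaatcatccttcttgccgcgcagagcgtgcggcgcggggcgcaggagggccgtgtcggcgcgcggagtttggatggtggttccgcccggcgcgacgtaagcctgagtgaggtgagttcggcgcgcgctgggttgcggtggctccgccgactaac
Atr, chr9:95857437-95857596, plus strand: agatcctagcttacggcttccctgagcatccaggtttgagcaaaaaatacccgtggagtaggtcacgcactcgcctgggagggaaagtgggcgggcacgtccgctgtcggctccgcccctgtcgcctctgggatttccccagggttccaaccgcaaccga
In Mcm5, the run of capitals holds 2 overlapping matches on opposite strands. Mcm6 has such a run as well, and a separate match that begins at base -47 from the start. A match describes letters in a window and is not a binding site. In Rfc5, Blm and Atr none of the 4 motifs occurred in the window, which says only that these letters are not there. Differences in expression were close in size with and without a match: the 15 genes with a match had a median of -0.29, with 13 of them negative, and the 25 genes whose windows held none had a median of -0.28, with 21 negative.

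**Figure D1:**
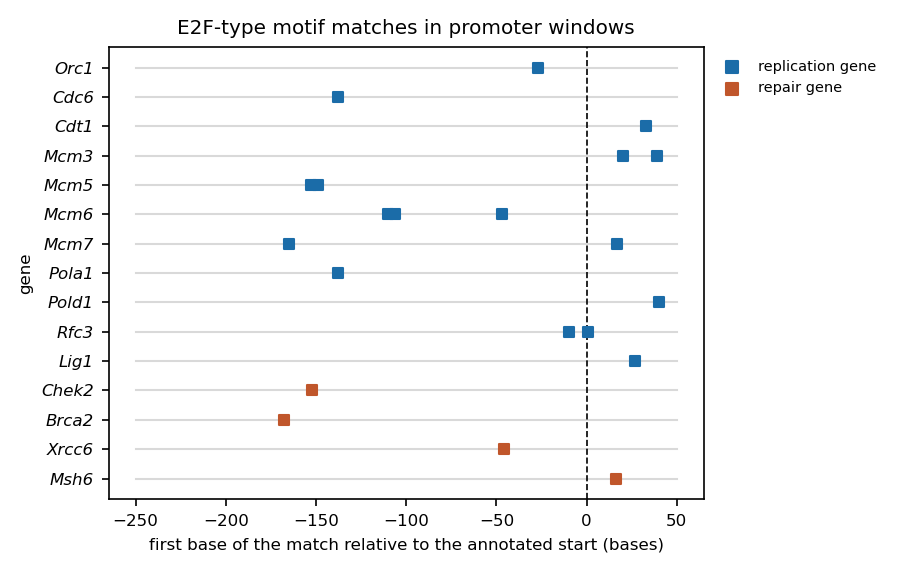
Position of each E2F-type motif match, in bases from the annotated start, in the promoter windows of the 15 genes that held one (squares; blue, replication genes; orange, repair genes; grey line, the window searched). Mcm6 holds 3 matches, Mcm3, Mcm5, Mcm7 and Rfc3 hold 2 each, and the other genes 1 each.

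Across both classes, transcript levels were mostly a little lower under the tumorigenic label, but no gene passed the test. Of the 49 genes, 40 had a negative difference of means, where 49.3% of all genes did. The median log2 difference was -0.34 for the 30 replication genes and -0.28 for the 19 repair genes, beside 0.0051 for all genes tested. Rfc5, which encodes a subunit of the clamp loader, had the lowest value of the set, a 2.21-fold lower level, and was the 1 member beyond 2-fold, a size that 6.85% of all genes reached. Limma, a linear model fitted across all 15027 genes, gave 0 members and 0 genes in all with a Benjamini-Hochberg adjusted p below 0.05, 0.00% of those tested, and adjusted p over the members was between 0.449 and 0.989. An unadjusted p below 0.05 was found for 5 members, all lower under the tumorigenic label: Atr, Blm, Rfc5, Gins2 and Pold1. The background for that count is 3.27% of all genes in the lower direction and 8.50% in either direction, and in the higher direction, where no member stood, 5.23%. Ranges in the 2 populations were apart for 5 members on the lower side, against 5.59% of all genes, and for 1 member, Nbn, on the higher side, against 6.90%.

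**Figure D2:**
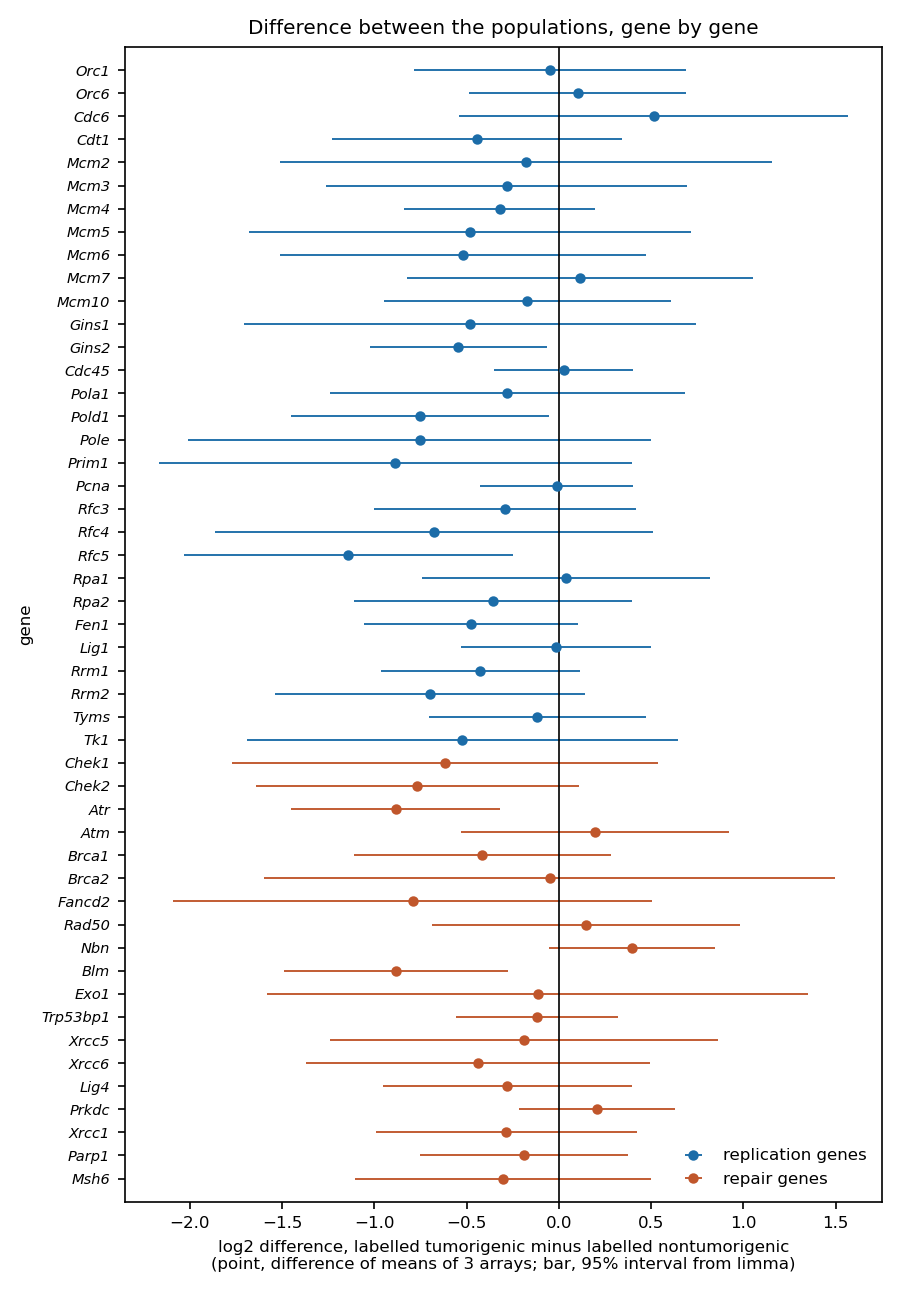
Log2 difference of each gene (points, labelled tumorigenic mean minus labelled nontumorigenic mean, 3 arrays each; bars, 95% interval from limma; blue, replication genes; orange, repair genes). Points lie left of 0 for 40 of 49 genes, and the interval leaves out 0 for 5 of them: Gins2, Pold1, Rfc5, Atr and Blm.

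The size of the shift depended on which arrays entered. That of labelled tumorigenic mouse 2, which had the widest gap between Gapdh control probe sets, held the lowest of the 6 values for 28 of the 49 genes, 57.1%, where 14.6% of all genes had their lowest value there. For replication genes this was 20 of 30 and for repair genes 8 of 19. That array lay below the mean of the other 5 by a median of -0.60 log2 units for replication genes and -0.44 for repair genes, against 0.034 for all genes. Without it the median difference was -0.075 for replication genes and -0.091 for repair genes, and 31 of 49 members were negative, 63.3%, against 51.0% of all genes. Atr, Blm and Pold1 were then the 3 members with an unadjusted p below 0.05, all lower, where 2.70% of all genes were lower at that p. With both arrays of mouse 2 left out, 38 of 49 members were negative, 77.6%, against 50.9% of all genes, and the medians were -0.21 for replication and -0.30 for repair genes. Without labelled tumorigenic mouse 1, which had the highest leukocyte and lowest luminal marker means, 36 of 49 members were negative, 73.5%, against 45.7%, and the medians were -0.38 and -0.25. The labelled tumorigenic array of mouse 3 had the lowest leukocyte marker mean of its label. Of the 6 arrays it had the highest basal marker mean, 10.36, and the lowest fibroblast marker mean, 8.96. It was also set alone against the 3 labelled nontumorigenic arrays. Both medians were then 0.073, and 21 of 49 members were negative, 42.9%, against 48.1% of all genes. Leaving out the labelled nontumorigenic array of mouse 1 gave -0.17 for replication and -0.10 for repair genes, and leaving out labelled tumorigenic mouse 3 gave -0.50 and -0.48, with 44 of 49 members negative, 89.8%, against 51.2% of all genes.

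**Figure D3:**
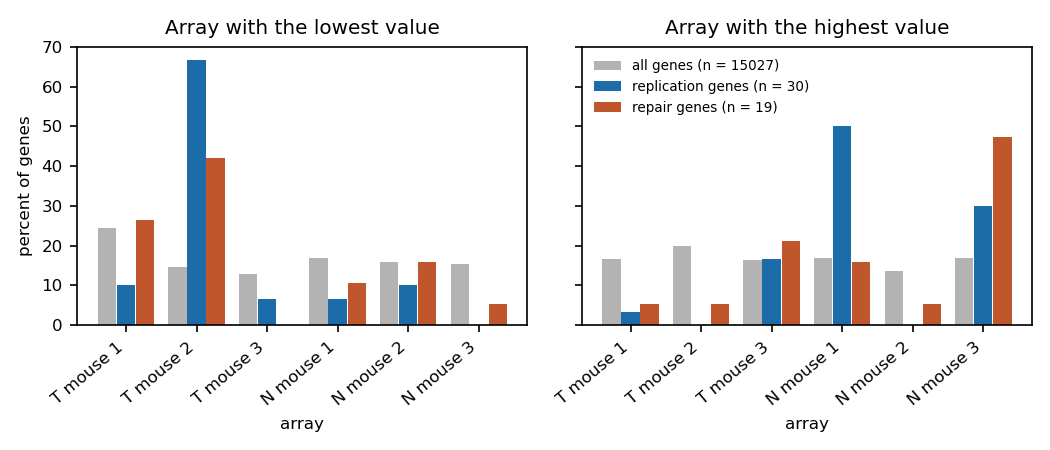
Percent of genes whose lowest value (left panel) or highest value (right panel) among the 6 arrays fell on each array (grey, all 15027 genes; blue, 30 replication genes; orange, 19 repair genes; T, labelled tumorigenic; N, labelled nontumorigenic). The blue bar at T mouse 2 in the left panel stands at 66.7%, against 14.6% for all genes.

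Replication and repair genes were then compared with each other within each mouse. The medians of the within-mouse differences were -0.45, -0.45 and -0.0082 for replication genes in mice 1, 2 and 3, and -0.31, -0.26 and -0.028 for repair genes. The replication median minus the repair median was therefore -0.14 and -0.19 in mice 1 and 2 and 0.020 in mouse 3. The SD of these 3 within-mouse values was 0.11. Taken from the differences of group means instead, the replication median minus the repair median was -0.058. Whether the 2 classes differ was not tested. Several replication genes, among them the clamp, its loader and the ligase, also serve repair synthesis, and without 10 such genes the replication median was -0.30. Negative within-mouse differences were found for 38, 35 and 28 of the 49 members in mice 1, 2 and 3, where 52.6%, 43.5% and 47.2% of all genes had one. They were negative in all 3 mice for 18 of the 49 members, 12 replication and 6 repair genes, against 14.3% of all genes. Nbn was positive in all 3 mice, the 1 member of that kind, against 15.9% of all genes. Differences below -1 in a mouse were found for 10, 8 and 4 members in mice 1, 2 and 3, beside 8.16%, 5.56% and 4.86% of all genes. Differences above 1 were found for 1, 1 and 2 members, beside 9.96%, 8.86% and 5.57%.

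**Figure D4:**
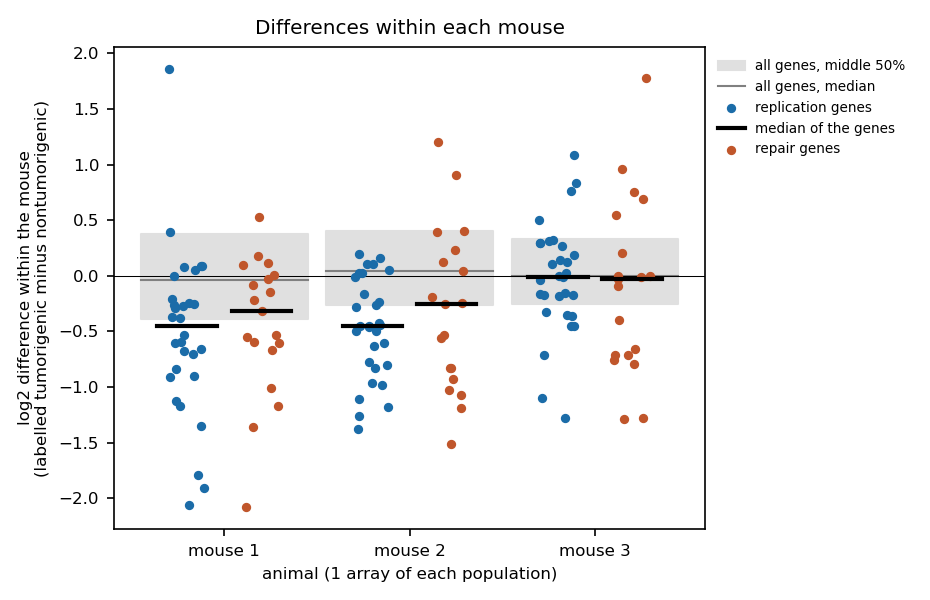
Log2 difference between the 2 arrays of each mouse (points, 1 gene each; blue, replication genes; orange, repair genes; black bars, their medians; grey band and line, middle 50% and median of all 15027 genes). In mice 1 and 2 the medians lie between -0.45 and -0.26, and in mouse 3 both lie close to 0.

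The genes that license origins showed no common direction, with 2 of 4 positive and a median of 0.026. Cdt1, the licensing factor that helps load the Mcm ring, read 7.84, 7.95 and 7.76 in the labelled tumorigenic arrays of mice 1, 2 and 3 and 9.01, 7.92 and 7.95 in the labelled nontumorigenic arrays. The labelled nontumorigenic array of mouse 1 stood more than 1 unit above the other 5, and without it the log2 difference of -0.44 became -0.085 (limma adjusted p = 0.744 with all arrays). Cdc6, the ATPase that works with Cdt1, read 4.73, 3.39 and 3.99 under the tumorigenic label and 2.87, 3.82 and 3.89 under the other. Its difference of 0.51 (SE 0.43) came from mouse 1, where both the highest and the lowest value lay, and without both arrays of that mouse it was -0.16. Orc1 and Orc6, subunits of the origin recognition complex, had differences of -0.049 and 0.10, with within-mouse values of -0.67, 0.023 and 0.50 for Orc1.

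Helicase genes were lower in 8 of 10 cases, with a median of -0.30, and 8 of the 10 had their lowest value in the labelled tumorigenic array of mouse 2. Of the 6 ring subunits Mcm2 to Mcm7, 5 had their lowest value there, and all 6 were negative in mice 1 and 2 against 4 of 6 in mouse 3. Mcm4 read 10.79, 10.33 and 10.93 in the labelled tumorigenic arrays of mice 1, 2 and 3 and 11.08, 10.82 and 11.10 in the labelled nontumorigenic arrays, a difference of -0.32 (SE 0.21, adjusted p = 0.714 by limma). Its ranges overlapped, but the value was negative in every mouse. On its chosen probe set, Mcm6 read 7.63, 6.54 and 8.11 under the tumorigenic label and 7.90, 7.80 and 8.14 under the other. There 5 arrays lay within 7.63 to 8.14 and 1 stood apart below them. The 95% interval on that probe set, -1.51 to 0.47, takes in a 2-fold lower level and also a higher one. The next brightest probe set of Mcm6 read 6.99, 5.43 and 7.31 under the tumorigenic label and 7.62, 6.86 and 7.81 under the other. Labelled tumorigenic mouse 2 was again lowest, but the other 5 arrays spread over 6.86 to 7.81. Each mouse was lower, with a difference of -0.86, against -0.52 on the chosen probe set. A dim probe set of Mcm6, left out by the filter, gave 0.031. On its chosen probe set, Mcm2 read 5.94 and 6.10 in the arrays of mouse 2 and 7.20 to 7.72 in the other 4. Its second probe set read 5.04, 4.80 and 6.06 under the tumorigenic label and 6.05, 5.36 and 5.66 under the other. There labelled tumorigenic mouse 1 lay below labelled nontumorigenic mouse 2, and the difference was -0.39, against -0.18 on the chosen one. Mcm5 read 7.75, 6.53 and 8.19 under the tumorigenic label and 8.35, 7.35 and 8.20 under the other. Its 2 lowest values were those of mouse 2. Mcm7 read 7.84, 7.91 and 9.18 under the tumorigenic label and 8.09, 8.40 and 8.10 under the other and was highest in labelled tumorigenic mouse 3. Of its 4 probe sets, only the chosen one gave a positive difference, 0.11. The other 3 were negative, from -0.51 to -0.035.

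The factors that join the ring were less alike. Gins2, a subunit of the GINS complex, read 5.75, 5.72 and 6.12 in the labelled tumorigenic arrays of mice 1, 2 and 3 and 6.59, 6.18 and 6.45 in the labelled nontumorigenic arrays. Each labelled tumorigenic array lay below each labelled nontumorigenic one, with a difference of -0.54 (SE 0.20, adjusted p = 0.536 by limma) and a 95% interval of -1.02 to -0.065. Its second probe set gave a difference of -0.47, but its ranges overlapped. Gins1, of the same complex, read 4.87, 4.62 and 6.51 under the tumorigenic label and 5.77, 5.99 and 5.68 under the other, and its within-mouse differences ran from -1.38 in mouse 2 to 0.83 in mouse 3. Cdc45, which binds GINS at the fork, had 0.025, with a 95% interval of -0.35 to 0.40. Mcm10, a factor that helps start the helicase, had -0.17, and Mcm3 had -0.28. Both had probe sets of both signs, from -0.33 to 0.13 for Mcm10 and from -0.28 to 0.045 for Mcm3.

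**Figure D5:**
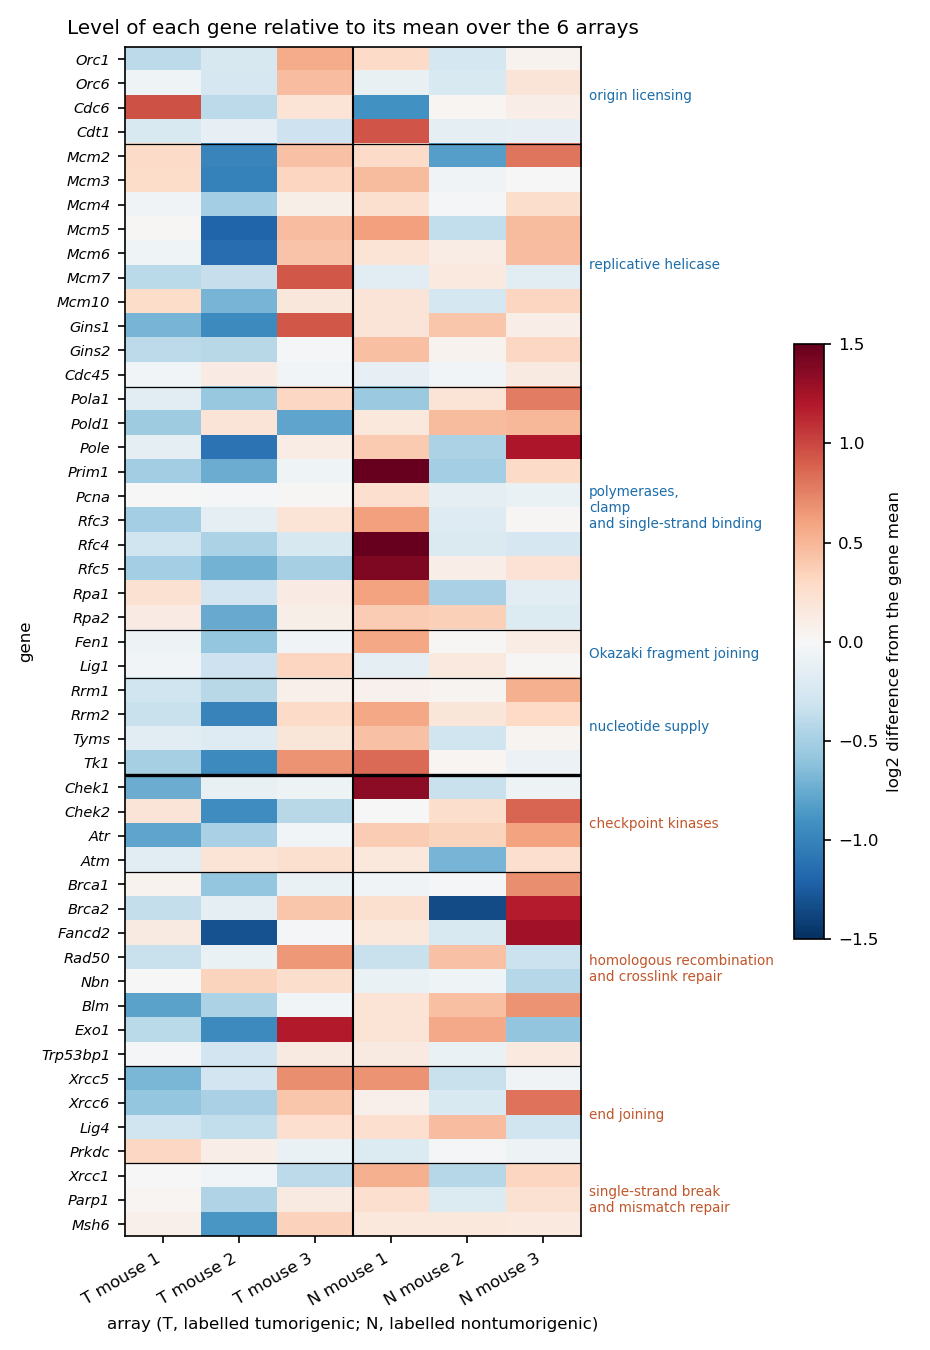
Level of each of the 49 genes in the 6 arrays, as the log2 difference from that gene's own mean (blue, below; red, above; the darkest colours also stand for anything past the ends of the scale; T, labelled tumorigenic; N, labelled nontumorigenic; thin lines part the roles and the thick line parts replication from repair genes). The blue column at T mouse 2 runs through most helicase genes, and single dark red cells at N mouse 1 mark Prim1, Rfc4, Rfc5 and Chek1.

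Polymerase, clamp and single-strand binding genes gave the lowest median of the replication roles, -0.52, with 9 of 10 negative. Rfc5 read 6.01, 5.81 and 6.02 in the labelled tumorigenic arrays of mice 1, 2 and 3 and 7.92, 6.62 and 6.73 in the labelled nontumorigenic arrays. The groups did not overlap, with a difference of -1.14 (SE 0.37, adjusted p = 0.521 by limma), and the 3 labelled tumorigenic values lay within 5.81 to 6.02. The labelled nontumorigenic array of mouse 1 stood far above the rest, and without it the difference was -0.73. Pold1, the catalytic subunit of polymerase delta, read 7.60, 8.33 and 7.36 in the labelled tumorigenic arrays of mice 1, 2 and 3 and 8.30, 8.62 and 8.64 in the labelled nontumorigenic arrays. It was negative in each mouse, with a difference of -0.75 (SE 0.29, adjusted p = 0.558 by limma), but 1 labelled tumorigenic array (mouse 2) lay above 1 labelled nontumorigenic array (mouse 1). Here mouse 2 was not the lowest array: mouse 3 was. Prim1, the primase that lays down RNA primers, read 8.37, 8.15 and 8.83 under the tumorigenic label and 10.44, 8.39 and 9.18 under the other. On this probe set mouse 1, with 1 high array, carried most of the difference of -0.89. Its second probe set read 6.27, 5.51 and 6.86 under the tumorigenic label and 8.14, 6.60 and 7.44 under the other. There the difference was -1.18, and each mouse was lower. Rfc4, another clamp loader subunit, read 7.49, 7.31 and 7.56 under the tumorigenic label and 9.28, 7.57 and 7.53 under the other, again with 1 high array.

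Pcna, the sliding clamp and a common proliferation marker, barely varied. It read 9.34, 9.31 and 9.36 in the labelled tumorigenic arrays of mice 1, 2 and 3 and 9.60, 9.21 and 9.24 in the labelled nontumorigenic arrays, a difference of -0.012 with a 95% interval of -0.43 to 0.40, which leaves out a 2-fold change in either direction. Rpa1, the large subunit of the single-strand binding protein, had 0.038 with an interval of -0.74 to 0.82, and Rpa2, its middle subunit, had -0.36, with -1.06 on its other probe set. Pole, the catalytic subunit of polymerase epsilon, had -0.75 and was negative in all 3 mice, with an interval of -2.01 to 0.50 when the pairing by mouse is not used. With the mouse as a block its unadjusted p fell below 0.05, as it did for 9.55% of all genes, and its adjusted p did not. Pola1, of the polymerase that extends primers, had -0.28 and Rfc3 had -0.29.

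High values in the labelled nontumorigenic array of mouse 1 recurred. Cdt1, Prim1, Rfc4, Rfc5 and Chek1 each stood more than 1 log2 unit above every other array there, 5 of 49 members, a pattern noticed after the values were seen. In all, 149 of 15027 genes, 0.992%, did so. The next brightest probe sets of Cdt1, Prim1 and Chek1 were also highest in that array, at 7.75, 8.14 and 5.73, whereas that of Rfc4 was highest in labelled tumorigenic mouse 3, at 7.07, and Rfc5 has a single probe set.

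Of the genes that join Okazaki fragments, Fen1, the flap nuclease, read 11.53, 11.03 and 11.55 in the labelled tumorigenic arrays of mice 1, 2 and 3 and 12.19, 11.63 and 11.72 in the labelled nontumorigenic arrays. The groups did not overlap, though labelled tumorigenic mouse 3 came close to labelled nontumorigenic mouse 2, with a difference of -0.48 (SE 0.24, adjusted p = 0.644 by limma). Its other probe set gave -0.53 with overlapping ranges. Lig1, the ligase that seals the fragments, read 6.85, 6.59 and 7.22 under the tumorigenic label and 6.76, 7.04 and 6.91 under the other. Its difference of -0.016 has a 95% interval of -0.53 to 0.50, and its sign turned when single arrays were left out.

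The 4 genes of nucleotide supply all had negative differences, with a median of -0.47. Rrm2, the S-phase subunit of ribonucleotide reductase, read 10.23, 9.57 and 10.86 in the labelled tumorigenic arrays of mice 1, 2 and 3 and 11.15, 10.75 and 10.86 in the labelled nontumorigenic arrays, a difference of -0.70 (SE 0.34, adjusted p = 0.636 by limma). Within mice the differences were -0.91, -1.18 and -0.0021, so that mouse 3 showed next to none. Rrm1, the large subunit of the same enzyme, read 7.15, 7.05 and 7.53 under the tumorigenic label and 7.53, 7.49 and 7.99 under the other, a difference of -0.42 (SE 0.22, adjusted p = 0.654 by limma). Its within-mouse differences were alike, -0.37, -0.45 and -0.46, and its other 2 probe sets gave -1.20 and -0.24. Tk1, the thymidine kinase of the salvage route, had -0.52, with -1.35, -0.98 and 0.76 in mice 1, 2 and 3. Tyms, which makes thymidylate, had -0.12, with all 4 probe sets negative.

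Among repair genes, the checkpoint kinases had the lowest median, -0.69, with 3 of 4 negative. Atr, the kinase that senses single-stranded DNA at stalled forks, had the smallest p of the 49 genes. It read 6.74, 7.05 and 7.49 in the labelled tumorigenic arrays of mice 1, 2 and 3 and 7.92, 7.88 and 8.14 in the labelled nontumorigenic arrays, and every labelled tumorigenic array lay below every labelled nontumorigenic one. The means were 7.09 ± 0.38 against 7.98 ± 0.15 (SD, n = 3 each), a difference of -0.89 (SE 0.23, adjusted p = 0.449 by limma), or a 1.85-fold lower level with an interval of -1.45 to -0.32. This rests on the chosen probe set, since the other 2 gave 0.28 and -0.17. Chek2, an effector kinase of the Atm arm, read 5.90, 4.79 and 5.30 under the tumorigenic label and 5.72, 5.98 and 6.59 under the other, a difference of -0.77 (SE 0.36, adjusted p = 0.631 by limma), with mice 2 and 3 lower and mouse 1 slightly higher. Chek1, the effector of Atr, had -0.62, with 1 high array, labelled nontumorigenic mouse 1: within-mouse values were -2.08, 0.23 and 0.00. Atm, the kinase that answers double-strand breaks, had 0.20, with probe sets of both signs.

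Genes of homologous recombination and crosslink repair were mixed, with a median of -0.12 and 6 of 8 negative. Blm, the helicase that untangles recombination intermediates, read 4.53, 4.86 and 5.30 in the labelled tumorigenic arrays of mice 1, 2 and 3 and 5.54, 5.78 and 6.01 in the labelled nontumorigenic arrays. The groups did not overlap, with a difference of -0.88 (SE 0.25, adjusted p = 0.463 by limma), an interval of -1.49 to -0.27, and similar values in the 3 mice, -1.01, -0.92 and -0.71. Blm is read by 1 probe set. Nbn, a subunit of the Mre11 complex that first binds broken ends, was the member whose labelled tumorigenic arrays all lay higher. It read 6.34, 6.68 and 6.60 in the labelled tumorigenic arrays of mice 1, 2 and 3 and 6.24, 6.28 and 5.91 in the labelled nontumorigenic arrays, a difference of 0.40 (SE 0.18, adjusted p = 0.628 by limma), with an interval of -0.053 to 0.85 that includes 0. Its partner Rad50 had 0.15, with values of 0.0067, -0.53 and 0.96 in mice 1, 2 and 3.

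The ranges of both breast cancer susceptibility genes overlapped between the labels. Brca1 read 5.31, 4.67 and 5.15 under the tumorigenic label and 5.20, 5.23 and 5.95 under the other, a difference of -0.41 with an interval of -1.11 to 0.28. All 4 of its probe sets were negative, of which 3 passed the filter on dim probe sets. Brca2 read 5.73, 5.95 and 6.51 under the tumorigenic label and 6.33, 4.75 and 7.27 under the other, and its labelled nontumorigenic values alone spanned 4.75 to 7.27, so that the interval, -1.60 to 1.50, allows a large change either way. Fancd2, which coordinates crosslink repair, had -0.79, with its lowest value, 2.48, in the dim range. Exo1, an end-resecting nuclease, swung from -1.52 in mouse 2 to 1.78 in mouse 3 on its chosen probe set. That set is dim, at 3.11 in labelled tumorigenic mouse 2. The next brightest probe set of Exo1 went the other way in these mice. It read 3.41 against 2.92 in mouse 2 and 3.01 against 3.51 in mouse 3, labelled tumorigenic value first. Trp53bp1, which favours end joining over resection, had -0.12 with an interval of -0.55 to 0.32. Its other probe sets gave differences from -0.23 to 1.02.

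End joining genes had a median of -0.23, with 3 of 4 negative. Xrcc6, which encodes Ku70, read 5.71, 5.81 and 6.71 in the labelled tumorigenic arrays of mice 1, 2 and 3 and 6.37, 6.06 and 7.10 in the labelled nontumorigenic arrays, a difference of -0.44 (SE 0.38, adjusted p = 0.78 by limma). The ranges overlapped, and the sign was negative in every mouse. Prkdc, the DNA-dependent kinase that Ku recruits, read 5.81, 5.60 and 5.39 under the tumorigenic label and 5.29, 5.47 and 5.42 under the other, a difference of 0.21 (SE 0.17, adjusted p = 0.771 by limma), with an interval of -0.22 to 0.63. Xrcc5, which encodes Ku80, had -0.19, with -1.36, 0.039 and 0.75 in mice 1, 2 and 3, and Lig4, the ligase of this route, had -0.28.

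Single-strand break and mismatch repair genes were all slightly lower, with a median of -0.28 over 3 genes. Xrcc1, a scaffold of single-strand break repair, read 6.31, 6.27 and 5.92 under the tumorigenic label and 6.84, 5.88 and 6.63 under the other, a difference of -0.28 (SE 0.29, adjusted p = 0.811 by limma), with the 2 arrays of mouse 2 in the opposite order to those of mice 1 and 3. Msh6, which recognises mismatched bases, read 8.55, 7.60 and 8.82 under the tumorigenic label and 8.63, 8.63 and 8.62 under the other, a difference of -0.30 (SE 0.33, adjusted p = 0.823 by limma). Its 3 labelled nontumorigenic values were nearly equal, labelled tumorigenic mouse 2 differed from its partner by -1.03, and without that array the difference was 0.060. Parp1, which marks single-strand breaks, had -0.19 with an interval of -0.75 to 0.38, and was negative in each mouse. Its 4 probe sets gave differences of both signs, from -0.72 to 0.051.

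Other genes of the same pathways, listed by role, were read from the same fit. Of 34 other replication genes measured out of 36 listed, 24 had negative differences and the median was -0.37, with 0 past an unadjusted p of 0.05. Uhrf1, which couples DNA methylation to the fork, read 7.74, 7.03 and 9.15 under the tumorigenic label and 9.34, 9.11 and 9.29 under the other, a difference of -1.27 (SE 0.52, adjusted p = 0.587 by limma), and Pold4, a small subunit of polymerase delta, had 0.76. Of 52 other repair genes measured out of 61, 32 were negative with a median of -0.095. That unadjusted p was passed by 6 of them on the lower side and 1 on the higher. Of all genes, 49.3% were negative, and 3.27% and 5.23% passed on the lower and the higher side. Wee1, the kinase that holds back Cdk1, read 8.17, 8.28 and 8.51 under the tumorigenic label and 9.35, 9.11 and 8.98 under the other, a difference of -0.83 (SE 0.18, adjusted p = 0.353 by limma), and the uracil glycosylase Ung had -0.92. Neither group had a gene past the adjusted threshold.

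Regulators of S phase and genes of mitosis were also mostly lower. Of 20 S phase regulators 14 were negative, with a median of -0.30, where 49.3% of all genes were negative. An unadjusted p below 0.05 was found for 3 of them, all lower, where 3.27% of all genes were lower at that p. Rb1, which encodes the retinoblastoma protein that restrains E2F, read 8.37, 8.37 and 8.67 under the tumorigenic label and 9.12, 8.96 and 9.23 under the other, a difference of -0.64 (SE 0.17, adjusted p = 0.449 by limma), and cyclin E1, Ccne1, had -0.61. Of 21 mitosis genes measured out of 22, 18 were negative, with a median of -0.67 (within mouse 1 it was -0.54, within mouse 2 -1.07 and within mouse 3 -0.30). The same unadjusted p was passed by 4 of these genes, all lower. The kinase Aurka read 3.93, 4.09 and 4.61 under the tumorigenic label and 5.41, 5.32 and 4.88 under the other, a difference of -0.99 (SE 0.25, adjusted p = 0.445 by limma), and Cenpe, a kinetochore motor, had -1.30. Of these 21 genes 17 had their lowest value in the labelled tumorigenic array of mouse 2, where 14.6% of all genes had theirs. Without that array the median of the mitosis genes was -0.23, beside -0.0080 for all genes. The medians of the other replication, other repair and S phase regulator lists without that array were -0.18, -0.090 and -0.057.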

How the data were processed

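Values were used as deposited: log2 levels of each probe set, made by the authors with RMA (robust multi-array average), the method named in the submitters' processing notes. As usually run, RMA sets arrays to a common distribution, which removes a change shared by most transcripts. No version of RMA is given, and the log2 scale was read from the values. Of 45101 probe sets, 64 were controls, 34945 had 1 gene symbol in the platform annotation, 932 several and 9160 none. Symbols were matched by Entrez identifier to RefSeq (34741 matched, 0 changed). Probe sets in the dimmest 25% by mean (cut at log2 2.98) were left out, and 1 probe set per gene, that with the highest mean, was tested by limma 3.58.1 in R 4.3.3 (lmFit, eBayes), two-sided, with Benjamini-Hochberg adjustment over 15027 genes. The code was tested on simulated data. The populations came from the same 3 mice, and deviations of same-mouse arrays correlated at 0.079, 0.14 and 0.086 across genes. The mouse as a block was an alternative, as were other filters, scalings, priors, weights, probe set rules and left-out arrays. With 3 arrays against 3, an exact permutation test cannot go below 0.1 and was not used. Arrays have no depth, and their number limits the precision.

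Every member could be named. With dim probe sets included, 33 members had several probe sets, and for 15 members these gave differences of both signs. Array values are given for members with an unadjusted p under 0.05, for those whose ranges did not overlap and for the 2 members of each of 9 roles with the smallest p, and for some others to show a named array. Of other lists, up to 3 genes with the smallest p could be named. Members, lists and roles were chosen with earlier results of these data known. Promoter windows were searched by exact string match. In the 1913 pairs of windows that overlap on opposite strands the table's sequences were reverse complements in all cases, so windows run 5′ to 3′ on the gene's strand.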

Additional observations from a re-analysis of the deposited data

Results flagged for a closer look

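The gap between the 3' and 5' Gapdh control probe sets, which no comparison uses, was 6.60 log2 units in the labelled tumorigenic array of mouse 2, above the highest value of the labelled nontumorigenic arrays, 3.78. This is the array in which 28 of the 49 replication and repair genes had their lowest value, and the part of the gap in that pattern was not tested.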

How the results depend on the processing

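With the mouse as a replicate block, 0 genes passed the adjusted threshold, 6 members had an unadjusted p below 0.05 (Pole added to the 5, all lower, beside 3.78% of all genes) and the lowest adjusted p of a member was 0.404. Across the alternatives run, 0 members passed. Over all genes, 1 passed with no dim filter, 1 when probe sets of a gene were averaged, and 0 to 18 with an array or mouse left out. Members with an unadjusted p below 0.05 numbered 1 to 8 when an array or mouse was left out: 3 without the labelled tumorigenic array of mouse 2, 3 without the labelled nontumorigenic array of mouse 3, 1 without mouse 2 (Pold1) and 8 without mouse 3. All were lower, and the share of all genes lower at that p was 2.70%, 2.78%, 2.54% and 4.88% in the same order. The probe set rule also changed the list. With the mean of probe sets, 6 members had such a p, all lower, beside 3.43% of all genes. Rpa2 and Rrm1 entered, and Atr, at -0.26, dropped out. With the probe set of largest SD, 6 were lower, beside 3.51% of all genes, and 1 was higher, Trp53bp1, while Gins2 dropped out. In either direction 8.52% of all genes had such a p. Members with ranges apart numbered 10 with the mean of probe sets, against 13.2% of all genes, and 8 to 21 with fewer arrays, where such gaps are commoner by construction (19 without the labelled tumorigenic array of mouse 3, against 31.7% of all genes). The replication median ran from -0.51 to -0.075, the repair median from -0.48 to -0.091 and their difference from -0.15 to 0.095. That difference was -0.18 with the probe set of largest SD. With the labelled tumorigenic array of mouse 3 alone, an alternative chosen after seeing the data, both medians were 0.073. Another alternative added then, the replication list without genes shared with repair, gave a median of -0.30. Of 323 values of 18 named members, 316 kept their sign. Those that turned were Lig1 (0.0014 and 0.13 leaving out labelled tumorigenic mouse 1 or 2, 0.052 leaving out labelled nontumorigenic mouse 2, 0.20 leaving out all of mouse 2; range -0.18 to 0.20), Msh6 (0.060 leaving out labelled tumorigenic mouse 2, 0.061 leaving out all of mouse 2; range -0.56 to 0.061) and Cdc6 (-0.16 leaving out mouse 1; range -0.16 to 0.98). The share of negative members was 81.6% with renewed quantile normalisation and with arrays centred on their medians too. Signals near background limit the dim genes, Fancd2, Tyms, Cdc6 and Exo1 among them.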
